A study of Mus musculus with 8 samples.

Results

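The genes of sarcoplasmic reticulum (SR) calcium cycling examined here were 10 of the 33249 genes in the deposited gene table, taken by symbol: Atp2a2, Pln, Ryr2, Casq2, Trdn, Jph2, Slc8a1, Hrc, S100a1 and Srl. All 10 passed the filter on low values (mean FPKM of at least 0.5), as did 14028 genes in all. They were measured by RNA sequencing of mouse myocardium after myocardial infarction (MI) or sham surgery, with 2 libraries in each of 4 groups. All mice carried floxed alleles of Piezo1, a stretch-activated cation channel. The fl/fl mice were littermates without Cre. The CKO mice also carried Myh6-Cre, a transgene in which the Myh6 promoter drives a tamoxifen-dependent Cre in cardiomyocytes, so that Piezo1 is targeted in these cells and not in the other cells of the heart. Tamoxifen was given at 4 weeks of age. At 8 weeks of age the left anterior descending coronary artery was tied permanently (fl/fl-MI and CKO-MI, hearts taken at day 42) or the surgery was done without ligation (fl/fl-Sham and CKO-Sham). The sources used here do not give the part of the ventricular wall that was sampled, nor whether the libraries of a group came from separate animals. The p-values below therefore measure the spread between libraries.

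With every heartbeat, calcium that enters a cardiomyocyte through L-type channels opens ryanodine receptors in the SR membrane, and the calcium they release starts contraction. Relaxation follows when SERCA2 (Atp2a2) pumps calcium back into the SR and the sodium-calcium exchanger (Slc8a1) carries the rest out of the cell. Phospholamban (Pln) holds SERCA2 back until it is phosphorylated. Calsequestrin (Casq2) and the histidine-rich calcium binding protein (Hrc) buffer calcium inside the SR, and triadin (Trdn) ties the store to the release channel. Failing hearts are known for slow SR uptake, and the amount of phospholamban relative to SERCA2 is used as a measure of how strongly the pump is restrained.

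The deposited counts summed to between 73821747 and 88117573 per library, and the lowest count of any member in any library was 7389, so counting error was small for all 10. Between 43.1% and 46.4% of the sham counts, but 19.9% to 24.2% of the MI counts, fell on mitochondrially encoded genes, and for this reason counts were scaled by TMM (trimmed mean of M values) to CPM (counts per 1e+06 of the scaled library total). Piezo1 itself was not lower in the libraries labelled CKO. It was at 76.7 and 88.3 CPM for CKO-Sham against 72.2 and 82.0 CPM for fl/fl-Sham. After MI it was at 56.3 and 64.6 CPM for CKO-MI against 53.5 and 64.8 CPM for fl/fl-MI. The authors report the deletion from Western blots of isolated adult cardiomyocytes, while these values are of RNA from all cells of the myocardium. Esr1, whose hormone-binding part the Cre transgene carries, was at 331 CPM for fl/fl-MI 2, at 707 and 402 CPM for CKO-MI, and between 5.52 and 8.36 CPM in the other libraries. The library labelled fl/fl-MI 2 also stood apart in genes of the atria, with 2810.4 CPM of the atrial light chain Myl4 against 10.2 to 48.0 CPM in the others. Directions between genotypes rest on the labels, and results that turn on fl/fl-MI 2 are given with and without it.

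The members differed widely in level. On the FPKM scale, which divides counts by gene length and library size, Pln was the highest member in the sham libraries at 581 ± 94.8 FPKM (SD, n = 4 libraries), followed by Atp2a2 at 330.1 ± 67.1 FPKM and S100a1 at 224 ± 28.8 FPKM. Hrc (87.7 ± 19.8 FPKM) and Casq2 (81.6 ± 15.7 FPKM) came next and overlapped, then Srl (41.97 ± 5.84 FPKM) and Jph2 (27.7 ± 2.39 FPKM). Trdn (12.6 ± 2.14 FPKM) and Ryr2 (12.5 ± 2.92 FPKM) overlapped, and Slc8a1 was lowest at 5.13 ± 0.384 FPKM. Every other pair of neighbours in this order was separate in all 4 sham libraries. In the MI libraries Atp2a2 came first at 1156 ± 574 FPKM, although its range overlapped that of Pln (910.4 ± 150.3 FPKM). Casq2 rose from the fifth place to the third at 279 ± 44.8 FPKM, above S100a1 at 198 ± 18.6 FPKM. Trdn moved to the last place at 19.4 ± 1.63 FPKM, overlapping Slc8a1 at 22.5 ± 3.34 FPKM.

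Upstream sequence is shown for the 3 members with an entry in the RefSeq promoter table (build GRCm38.p6) that rose after MI under every processing alternative (Casq2, Jph2 and Slc8a1, below), and for S100a1, the member that fell. Each is the strand of the gene, 5′ to 3′, over the 250 bases before the RefSeq start, and for S100a1 the 188 of these bases that lie outside the gene as the deposited table bounds it. Capitals mark matches to the motifs searched on both strands, namely MEF2, CArG, the TATA box TATAAA, the M-CAT core CATTCC and the GC box GGGCGG.
Casq2, chr3:102086165-102086414, plus strand: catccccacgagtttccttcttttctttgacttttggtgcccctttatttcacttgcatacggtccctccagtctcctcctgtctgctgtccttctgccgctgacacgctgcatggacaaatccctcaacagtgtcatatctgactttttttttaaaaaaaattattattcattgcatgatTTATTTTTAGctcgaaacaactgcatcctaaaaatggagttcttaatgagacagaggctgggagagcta
Jph2, chr2:163397994-163398243, minus strand: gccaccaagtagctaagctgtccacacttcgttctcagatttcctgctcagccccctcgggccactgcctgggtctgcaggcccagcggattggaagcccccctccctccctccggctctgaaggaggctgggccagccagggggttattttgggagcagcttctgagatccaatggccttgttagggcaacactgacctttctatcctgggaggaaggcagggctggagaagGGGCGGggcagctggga
Slc8a1, chr17:81738388-81738637, minus strand: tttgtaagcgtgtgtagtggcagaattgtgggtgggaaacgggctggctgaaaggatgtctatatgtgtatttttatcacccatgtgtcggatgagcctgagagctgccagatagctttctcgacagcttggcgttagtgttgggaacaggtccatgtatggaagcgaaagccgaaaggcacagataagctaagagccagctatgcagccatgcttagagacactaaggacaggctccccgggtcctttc
S100a1, chr3:90514393-90514580, minus strand: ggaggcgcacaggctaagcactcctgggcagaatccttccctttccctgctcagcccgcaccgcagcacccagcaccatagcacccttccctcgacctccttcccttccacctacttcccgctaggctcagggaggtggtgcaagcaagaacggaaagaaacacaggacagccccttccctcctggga
Of the 7 members in that table, Casq2 alone held a MEF2 motif, 69 bases before its start, where 1.69% of all 32851 promoters of this length hold one. GGGCGG was found in Jph2 and Hrc (32.7% of all promoters) and TATAAA in Pln, 219 bases before its start (12.4%). CATTCC (12.6% of all promoters) and CArG (1.47%) were found in none of the 7. The windows ranged from 32.8% GC in Pln to 63.2% in Ryr2, around a median of 52.4% over all promoters. Atp2a2, Trdn and Srl were not matched.

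MI was followed by higher levels of most calcium cycling genes. The exchanger, the store protein Casq2, the membrane anchor Jph2 and Srl were called higher under every processing alternative. The share of all tested genes called higher under every alternative was not counted. The pump and the release channel were called as well, but these calls ended without single libraries and with an offset for transcript length. S100a1 fell. Pln and Trdn were not called on the TMM scale but were called higher on the FPKM scale, on which S100a1 was not called. Over both genotypes, edgeR called 6 of the 10 members higher in MI than in sham (adjusted p under 0.05), where 22% of all tested genes were called higher, and 1 lower, where 18.3% were called lower. The median log2 fold change of the members was 0.95, beside 0.03 over all tested genes. Every MI library lay above every sham library for Casq2, Jph2, Slc8a1 and Srl (4 of 10, against 20.9% of tested genes), and every MI library lay below for S100a1 (1 of 10, against 19.5%). In bulk tissue, fewer cells of a type and less RNA per cell cannot be told apart.

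**Figure D1:**
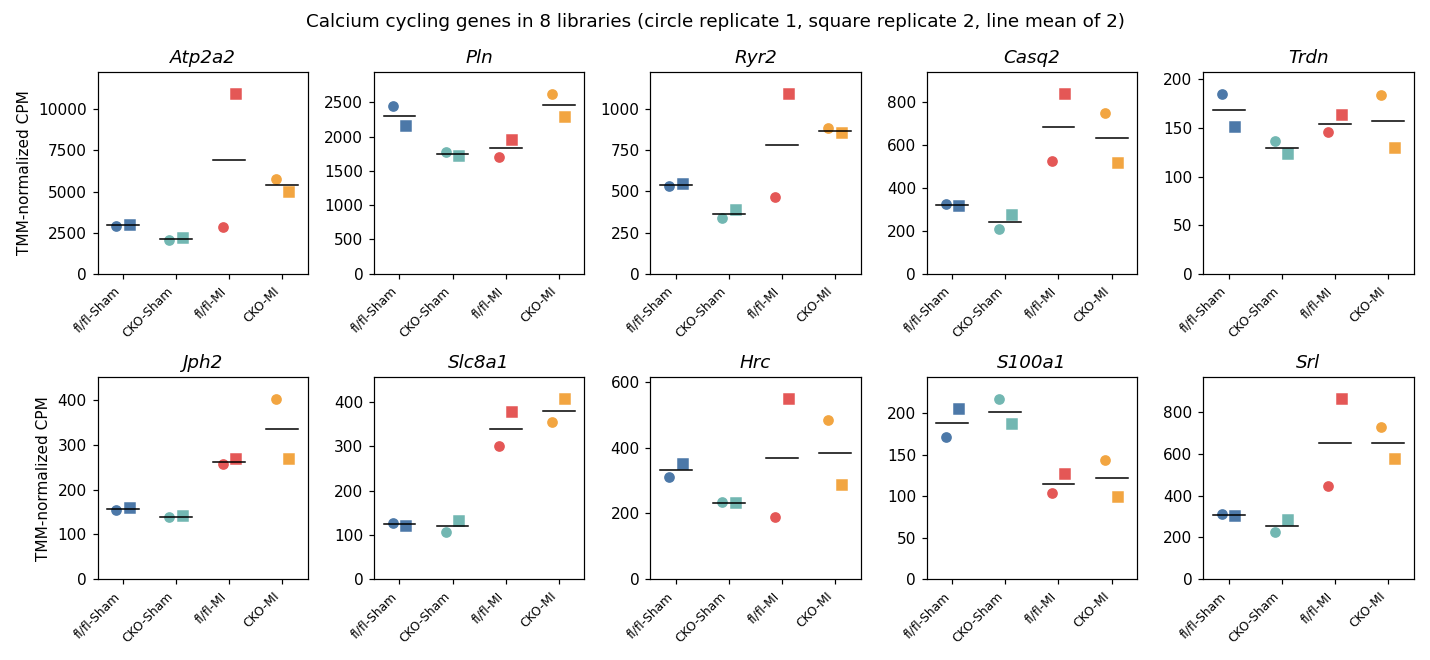
TMM-normalized CPM of each member (vertical axes, from 0) in the 8 libraries by group (horizontal axes), with circles for replicate 1, squares for replicate 2 and a line at the mean of the 2. Slc8a1, Casq2, Jph2 and Srl separate all MI from all sham libraries, while Atp2a2 spans 2828 to 10962 CPM after MI.

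Atp2a2 encodes SERCA2, the pump that refills the SR (ENSMUSG00000029467, chromosome 5 from 122453513 to 122502174, minus strand). It was at 2904 and 2990.0 CPM for fl/fl-Sham, 2051 and 2147 CPM for CKO-Sham, 2828 and 10962 CPM for fl/fl-MI, and 5783 and 4980.5 CPM for CKO-MI. The library labelled fl/fl-MI 1 thus lay within the sham range, and the other 3 MI libraries lay above it. These 3 were also the libraries with high Esr1, and the part of that difference in Atp2a2 was not tested. Atp2a2 rose 2.45-fold after MI over both genotypes (log2 fold change 1.29, standard error 0.39, adjusted p = 0.0354 in edgeR). Without the library labelled fl/fl-MI 2 the log2 fold change was 0.65, with fl/fl-MI 1 as the only library left in its group. Leaving out any 1 sham or CKO-MI library ended the call, with adjusted p between 0.0734 and 0.115 in edgeR. Within genotypes neither change passed, at 1.23 in fl/fl (standard error 0.55, adjusted p = 0.156) and 1.36 in CKO (standard error 0.55, adjusted p = 0.113 in edgeR). In fl/fl it came to -0.06 when fl/fl-MI 2 was left out.

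Pln encodes phospholamban, the inhibitor of that pump (ENSMUSG00000038583, chromosome 10 from 53337667 to 53345987, plus strand). Its levels were 2442 and 2147 CPM for fl/fl-Sham, 1771 and 1717 CPM for CKO-Sham, 1707 and 1956 CPM for fl/fl-MI, and 2627 and 2280.4 CPM for CKO-MI. The sham and MI libraries overlapped, and the log2 fold change over both genotypes was 0.08 (standard error 0.14, adjusted p = 0.656 in edgeR). Both fl/fl-MI libraries lay below both fl/fl-Sham libraries (log2 fold change -0.33, standard error 0.20), and both CKO-MI libraries lay above both CKO-Sham libraries (0.49, standard error 0.20), with neither change past the adjusted threshold (adjusted p = 0.272 and 0.107 in edgeR). On the FPKM scale the change in fl/fl was 0.24, so its sign depended on the scaling. Pln overlaps the antisense genes Cep85l and Gm47644, each with at most 3.12% of the counts of Pln, and without knowledge of how strand was counted their reads cannot be told apart.

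The ratio of Pln to Atp2a2 was lower in every MI library than in every sham library. From FPKM values it was 1.85 and 1.58 for fl/fl-Sham, 1.903 and 1.76 for CKO-Sham, 1.33 and 0.393 for fl/fl-MI, and 1.001 and 1.01 for CKO-MI. The mean fell from 1.78 ± 0.141 (SD, n = 4) to 0.933 ± 0.391 (SD, n = 4), a log2 difference of -1.05 (two-sided exact permutation test p = 0.0286, the smallest p that 4 libraries against 4 allow, and 0.0571 adjusted over the 2 ratio tests). A ratio within a library does not depend on how the libraries were scaled. Between CKO and fl/fl the log2 difference was 0.29 (two-sided exact permutation test p = 0.771, n = 4 against 4). Within genotypes it was -1.24 in fl/fl and -0.87 in CKO, where 2 libraries against 2 allow no p below 0.333. Without the library labelled fl/fl-MI 2 the difference between MI and sham was -0.68. The MI libraries with high Esr1 lay between 0.393 and 1.01, and fl/fl-MI 1, with low Esr1, was nearest to sham at 1.33. The part of that difference in the ratio was not tested. These are RNA values, and protein and phosphorylation were not measured here.

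**Figure D2:**
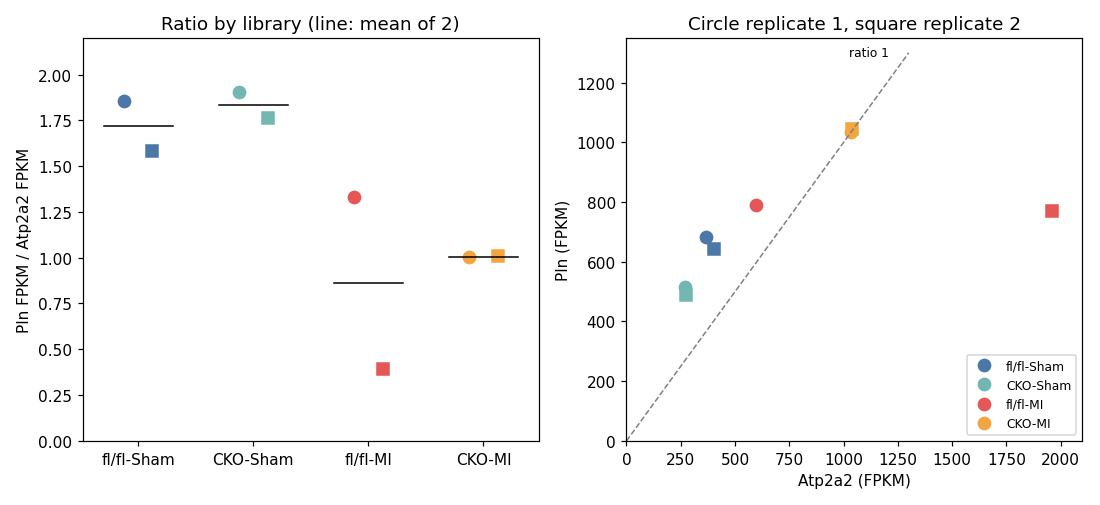
Left, the ratio of Pln FPKM to Atp2a2 FPKM (vertical axis, from 0) by group, with a line at the mean of the 2 libraries. Right, Pln FPKM against Atp2a2 FPKM in the same libraries, with a dashed line where the ratio is 1. The 4 sham libraries sit between 1.58 and 1.903, and the 4 MI libraries between 0.393 and 1.33.

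Ryr2, the calcium release channel of the SR (ENSMUSG00000021313, chromosome 13 from 11553102 to 12106945, minus strand), was at 532 and 545 CPM for fl/fl-Sham, 339.7 and 388 CPM for CKO-Sham, 465 and 1092 CPM for fl/fl-MI, and 881 and 853 CPM for CKO-MI. As with Atp2a2, the library labelled fl/fl-MI 1 lay within the sham range and the other 3 MI libraries lay above it. It rose 1.86-fold over both genotypes (log2 fold change 0.89, standard error 0.26, adjusted p = 0.0296 in edgeR). The change was 1.25 in CKO (adjusted p = 0.0455) and 0.53 in fl/fl (adjusted p = 0.324 in edgeR), or -0.21 in fl/fl without the library labelled fl/fl-MI 2. Without that library the pooled change was 0.52, and the pooled call ended when any 1 sham or CKO-MI library was left out. The CKO call ended in the same 6 fits (adjusted p between 0.0897 and 0.225 in edgeR).

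Casq2 encodes the main calcium buffer inside the SR (ENSMUSG00000027861, chromosome 3 from 102086415 to 102146514, plus strand). It had 326 and 317 CPM for fl/fl-Sham, 207 and 275 CPM for CKO-Sham, 525 and 841 CPM for fl/fl-MI, and 749 and 518 CPM for CKO-MI, so that the lowest MI library was above the highest sham library. Casq2 rose 2.37-fold (log2 fold change 1.24, standard error 0.21, adjusted p = 0.0045 in edgeR) and was called higher in fl/fl (1.09, adjusted p = 0.0445) and in CKO (1.40, adjusted p = 0.0186). The fl/fl call ended in 7 of the 8 fits that each left out 1 library (adjusted p between 0.0545 and 0.218), all but that without fl/fl-MI 1. The CKO call ended without CKO-MI 1, CKO-Sham 1 or CKO-Sham 2 (adjusted p = 0.0869, 0.14 and 0.0714 in edgeR).

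Jph2 encodes junctophilin 2, which holds the SR against the T-tubule membrane (ENSMUSG00000017817, chromosome 2 from 163336242 to 163397993, minus strand). In the sham libraries it ranged from 138 to 159.9 CPM. After MI it had 257 and 268 CPM for fl/fl-MI and 403 and 268 CPM for CKO-MI, with no overlap. Jph2 rose by 1.003 on the log2 scale (standard error 0.15, adjusted p = 0.0027 in edgeR), by 0.74 in fl/fl (adjusted p = 0.0483) and 1.27 in CKO (adjusted p = 0.0088) on the log2 scale. The fl/fl call ended in 6 of the 8 fits without 1 library (adjusted p between 0.0536 and 0.216), all but those without a CKO-MI library, and the CKO call without either CKO-Sham library (adjusted p = 0.0843 and 0.0637 in edgeR).

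Trdn encodes triadin, which links calsequestrin to the release channel (ENSMUSG00000019787, chromosome 10 from 33080554 to 33476709, plus strand). Its levels overlapped throughout, at 123 to 185 CPM in the sham libraries and 129 to 184 CPM in the MI libraries. The log2 fold change of 0.07 had a standard error of 0.15 (adjusted p = 0.713 in edgeR). Hrc, another calcium buffer of the SR (ENSMUSG00000038239, chromosome 7 from 45335290 to 45338974, plus strand), varied widely after MI. It had 313 and 351 CPM for fl/fl-Sham, 235 and 231 CPM for CKO-Sham, 189 and 550.0 CPM for fl/fl-MI, and 484 and 286 CPM for CKO-MI, and the library labelled fl/fl-MI 1 was the lowest of all 8. Its log2 fold change of 0.44 had a standard error of 0.33 (adjusted p = 0.324 in edgeR). It came to -0.04 when fl/fl-MI 2 was left out and to 0.71 when fl/fl-MI 1 was.

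Slc8a1, the sodium-calcium exchanger that carries calcium out of the cell (ENSMUSG00000054640, chromosome 17 from 81373105 to 81738377, minus strand), changed most among the members. It was at 126 and 121 CPM for fl/fl-Sham, 108 and 132 CPM for CKO-Sham, 300.4 and 377 CPM for fl/fl-MI, and 354 and 408 CPM for CKO-MI. The spread within each group was small beside the difference between sham and MI. It rose 2.96-fold (log2 fold change 1.56, standard error 0.13, adjusted p = 0.00064 in edgeR), by 1.46 in fl/fl (adjusted p = 0.0061) and by 1.67 in CKO (adjusted p = 0.0043). The fl/fl call ended without either fl/fl-Sham library (adjusted p = 0.0703 and 0.0743), and the CKO call without CKO-Sham 1 (adjusted p = 0.0573 in edgeR).

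Srl encodes sarcalumenin, a luminal calcium-binding glycoprotein of the SR (ENSMUSG00000022519, chromosome 16 from 4480216 to 4523075, minus strand). It ranged from 224 to 314 CPM in the sham libraries, and was at 445 and 866 CPM for fl/fl-MI and 731 and 578 CPM for CKO-MI, again without overlap. Srl rose 2.34-fold (log2 fold change 1.23, standard error 0.23, adjusted p = 0.0063 in edgeR), was called in CKO (1.36, adjusted p = 0.0251), and missed the threshold in fl/fl (1.09, adjusted p = 0.0554). The CKO call ended when any 1 sham or CKO-MI library was left out (adjusted p between 0.058 and 0.166 in edgeR). S100a1, a small calcium sensor that binds SERCA2 and the ryanodine receptor (ENSMUSG00000044080, chromosome 3 from 90511034 to 90514392, minus strand), went the other way. It was at 171 and 206 CPM for fl/fl-Sham, 217 and 187 CPM for CKO-Sham, 104 and 126 CPM for fl/fl-MI, and 143 and 99.3 CPM for CKO-MI. All 4 MI libraries lay below all sham libraries, and S100a1 fell by 0.73 on the log2 scale with a standard error of 0.16 (adjusted p = 0.0112 in edgeR). The call ended without the library labelled CKO-Sham 1 (adjusted p = 0.0504) or fl/fl-Sham 2 (adjusted p = 0.053 in edgeR). Within genotypes it was -0.72 in fl/fl (adjusted p = 0.0641) and -0.74 in CKO (adjusted p = 0.0516).

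**Figure D3:**
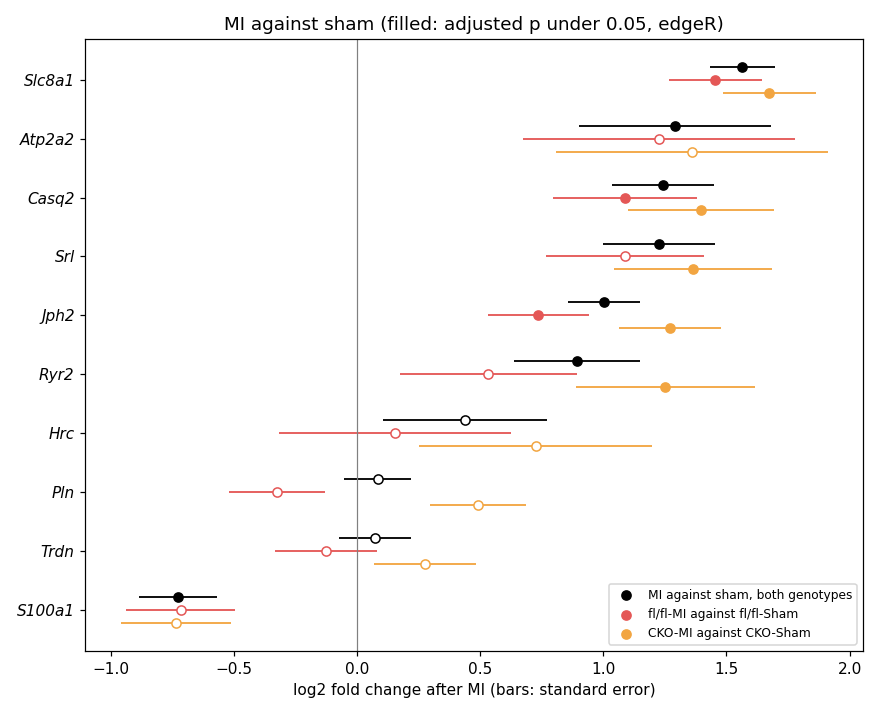
Log2 fold change after MI (horizontal axis) of each member (vertical axis) over both genotypes, in fl/fl and in CKO, with bars for the standard error and filled points for an adjusted p under 0.05 in edgeR. Slc8a1 reaches 1.56 over both genotypes and S100a1 lies at -0.73, while Pln and Trdn lie at 0.08 and 0.07.

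Within genotypes, 3 members (Casq2, Jph2 and Slc8a1) were called higher after MI in fl/fl, beside 10.1% of tested genes called higher and 8.45% called lower. Of the CKO libraries, 5 members were called higher after MI (Ryr2, Casq2, Jph2, Slc8a1 and Srl), beside 12.8% of tested genes higher and 11.9% lower. No member (0) was called lower in either. The fl/fl count rested on single libraries. The number of all tested genes called also changed when 1 library was left out, and fell most without a fl/fl-Sham library. The loss of calls was thus not particular to the members. Without fl/fl-Sham 1 and without fl/fl-Sham 2, the log2 fold changes in fl/fl were 1.48 and 1.43 for Slc8a1. They were 1.11 and 1.07 for Casq2, and 0.72 and 0.76 for Jph2. Without the library labelled fl/fl-MI 2 the log2 fold changes in fl/fl were 1.28 for Slc8a1, 0.71 for Casq2 and 0.71 for Jph2. They were 0.53 for Srl and -0.87 for S100a1. In each fit without 1 library, the lone library left in a group is assumed to vary like those of the other groups. With all 8 libraries, 5 members were at an unadjusted p under 0.05, as were 36.3% of tested genes. The CKO count also rested on single libraries. There too the number of all tested genes called changed when 1 library was left out, and fell most without a CKO-Sham library. In those fits the log2 fold changes in CKO of the members called lay between 1.16 (Ryr2) and 1.83 (Slc8a1). With all 8 libraries, 8 members were at an unadjusted p under 0.05, as were 39.9% of tested genes.

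The scale moved these values together. On FPKM values in limma (log2 of FPKM + 1) the median of all tested genes rose by 0.41 on the log2 scale after MI, and 9 of the 10 members were called higher, as were 50.1% of tested genes, with Pln (0.65, adjusted p = 0.0018), Trdn (0.59, adjusted p = 0.0042) and Hrc (0.88, adjusted p = 0.0326) among them. Relative to that median, Pln was at 0.24 and Trdn at 0.18, against 1.52 for Slc8a1 and 1.36 for Casq2. S100a1 was at -0.17 on this scale and was not called (adjusted p = 0.319 in limma), or at -0.58 relative to the median.

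The change after MI also varied with transcript length over all genes. Genes with transcripts up to 1000 bases had a median log2 fold change of -0.38 (1888 genes) and those over 6000 bases one of 0.28 (1241 genes). S100a1 has the shortest transcripts of the members at 649.8 bases on average and lay 0.35 below the median of its length class, while Slc8a1 and Ryr2, at 14463 and 14994 bases, lay 1.28 and 0.61 above theirs. Pln and Trdn both lay 0.01 below the median of genes of like length. With an offset for transcript length, Casq2, Jph2, Slc8a1 and Srl were still called in edgeR, while Atp2a2 (log2 fold change 1.17, adjusted p = 0.06), Ryr2 (0.62, adjusted p = 0.116) and S100a1 (-0.32, adjusted p = 0.0931) were not.

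**Figure D4:**
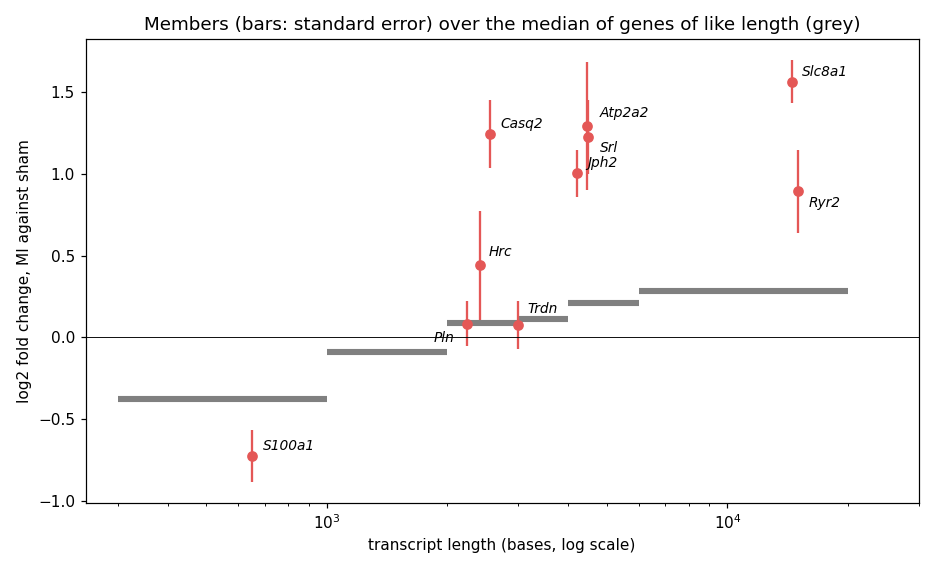
Log2 fold change of MI against sham over both genotypes (vertical axis) against transcript length in bases (horizontal axis, log scale), with a point and its standard error for each member and grey bars at the median of all tested genes in 6 length classes. The medians rise from -0.38 to 0.28 with length, and 6 members lie above them by more than 0.60.

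Of the 10 members, 7 had at least 2 transcripts with a mean FPKM of 1 or more, and these were compared by transcript. Shares are of a gene's summed transcript FPKM as the authors' software estimated them. Over these 21 transcripts, the share of 2 was higher and that of 3 lower in every MI library than in every sham library. Of the 12081 such transcripts of all genes, 9.68% and 11% did so. The numbers for the members were near these shares, so the transcripts below are given as descriptions. In Slc8a1 the long transcript ENSMUST00000234131 (18464 bases, 8 exons) held 92.5% to 95.9% in sham and 62.3% to 74.7% in MI libraries. The short ENSMUST00000235015 (3339 bases, 12 exons) held 3.62% to 7.47% in sham libraries and 24.3% to 26.2% in 3 MI libraries, and in the library labelled CKO-MI 2 it held 5.66% beside 31.1% of the like-sized ENSMUST00000163123. The long transcript itself was at 106 to 129.8 CPM in the sham libraries and 280.3 to 367 CPM in the MI libraries. In Pln the main transcript ENSMUST00000046221 held 93.4% to 96.0% in the sham and 86.2% to 92.4% in the MI libraries, and the 3-exon ENSMUST00000219491 held 1.25% to 1.65% and 3.95% to 6.72%. All 5 Pln transcripts encode the same 52 residues by length in GENCODE M21.

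In Trdn a retained intron transcript of 1 exon, ENSMUST00000219000, held 46.2% to 50.0% of the summed FPKM in sham libraries and 36.7% to 40.5% after MI. The coding transcript of 8 exons, ENSMUST00000219982, held 14.6% to 18.1% and 18.4% to 26.3%. That of 38 exons, ENSMUST00000095762, overlapped, at 24.0% to 31.2% and 27.0% to 39.3%. Of the counts of Trdn, 18.9% to 29.9% were assigned to the 1-exon transcript. By share of the gene's counts, without the division by transcript length, ENSMUST00000219000 still separated sham (26.8% to 29.9%) from MI (18.9% to 22.6%), as did ENSMUST00000234131 of Slc8a1 (98.5% to 99.2% against 90.6% to 94.3%) and ENSMUST00000219491 of Pln (0.419% to 0.557% against 1.36% to 2.39%). On that measure ENSMUST00000046221 of Pln (95.9% to 97.5% against 92.7% to 96.2%) and ENSMUST00000219982 of Trdn (21.1% to 27.3% against 23.8% to 33.7%) overlapped. The shares of Atp2a2 overlapped: ENSMUST00000177974, with 998 residues, held 59.2% to 94.4% in sham and 45.4% to 73.8% in MI libraries. ENSMUST00000179939, annotated as subject to nonsense-mediated decay, held 2.76% to 40.6% and 25.8% to 53.2%. The 2 transcripts of Srl varied between libraries of one group as much as between groups, with 27.0% to 96.2% for ENSMUST00000023161 after MI.

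With all 8 libraries, no member was called between genotypes. In CKO-MI against fl/fl-MI, edgeR called 0 members and 0% of tested genes, with 0 members and 8.31% of tested genes at an unadjusted p under 0.05, and DESeq2 also called 0 members. Their log2 fold changes lay between -0.36 (Atp2a2, standard error 0.54) and 0.42 (Pln, standard error 0.20). For Atp2a2 the 95% interval of the difference (from the t distribution with the test's 7.06 degrees of freedom) ran from -1.64 to 0.92, so a sizeable difference in either direction was not detectable with these libraries. The direction turned on single libraries, at 0.93 without the library labelled fl/fl-MI 2 and -1.01 without fl/fl-MI 1. Each of these fits left 1 library in the fl/fl-MI group. In CKO-Sham against fl/fl-Sham, 0 members and 0.00713% of tested genes (1 gene) were called in edgeR, with 0 members and 3.89% of tested genes at an unadjusted p under 0.05, and 0 members were called in DESeq2. Here 9 of the 10 members were lower in CKO-Sham, with a median log2 fold change of -0.39 beside 0.00 over all tested genes, from -0.56 (Ryr2, standard error 0.36) to 0.10 (S100a1, standard error 0.22). Fitted on the 4 sham libraries alone, Ryr2 passed in edgeR (-0.57, adjusted p = 0.046), 1 of 165 genes called in that fit among 14028 tested. The interaction of genotype and MI called 0 members and 0% of tested genes in edgeR and 0 members in DESeq2, with 1 member, Pln, at an unadjusted p under 0.05 (0.82, standard error 0.28, adjusted p = 0.574), as were 8.49% of tested genes.

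The other genes of calcium handling changed in both directions. The list held 60 genes in 8 roles, of which 59 were in the table and 50 were tested, and edgeR called 17 higher and 7 lower in MI than in sham over both genotypes. Of all tested genes 22% were called higher and 18.3% lower. The list's median log2 fold change was 0.14, beside 0.03 over all tested genes. Besides Sln and the 4 called genes with the largest change in each direction, the genes named here were chosen after their values were seen. All 3 called genes of the luminal store rose, namely the chaperones Hspa5, Calr and Canx. Hspa5 was at 228 to 272 CPM in the sham and 532 to 540.7 CPM in the MI libraries (log2 fold change 1.10, adjusted p = 0.00073 in edgeR). In the phosphorylation group 6 of 11 rose and none (0) of the others passed the test. Akap6, the anchor of protein kinase A at the nuclear envelope and SR, was the largest of them at 2.02 (adjusted p = 0.00083), followed by the glycogen-bound phosphatase subunit Ppp1r3a at 1.56 (adjusted p = 0.00061 in edgeR).

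Genes of the dyad and T-tubule were split. Cmya5, which holds the dyad at the Z-line, rose (1.69, adjusted p = 0.0019), as did Jph1 and Ank2, while Tcap, the titin cap, fell (-1.51, adjusted p = 0.0136 in edgeR) together with Cav3 and Speg. Among the release channels and their partners, Asph and Calm3 rose, and the inositol trisphosphate receptors Itpr3 (-0.77, adjusted p = 0.0097 in edgeR) and Itpr2 fell. Atp2a3, the SERCA3 pump known from endothelial cells, fell (-1.10, adjusted p = 0.0027 in edgeR), from 37.8 to 58.4 CPM in the sham libraries to 16.4 to 23.6 CPM after MI. Strit1, which encodes the SERCA-activating peptide DWORF, was at 0.395 to 0.981 CPM in the sham libraries and at 0 to 0.118 CPM in the MI libraries (adjusted p = 0.019 in edgeR), close to the limit of detection. Sln, the atrial SERCA inhibitor sarcolipin, was at 0.897 to 4.62 CPM in 7 libraries and at 309.7 CPM in that labelled fl/fl-MI 2, and its change after MI did not pass (adjusted p = 0.118 in edgeR). The 4 genes of mitochondrial calcium uptake were not called.

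**Figure D5:**
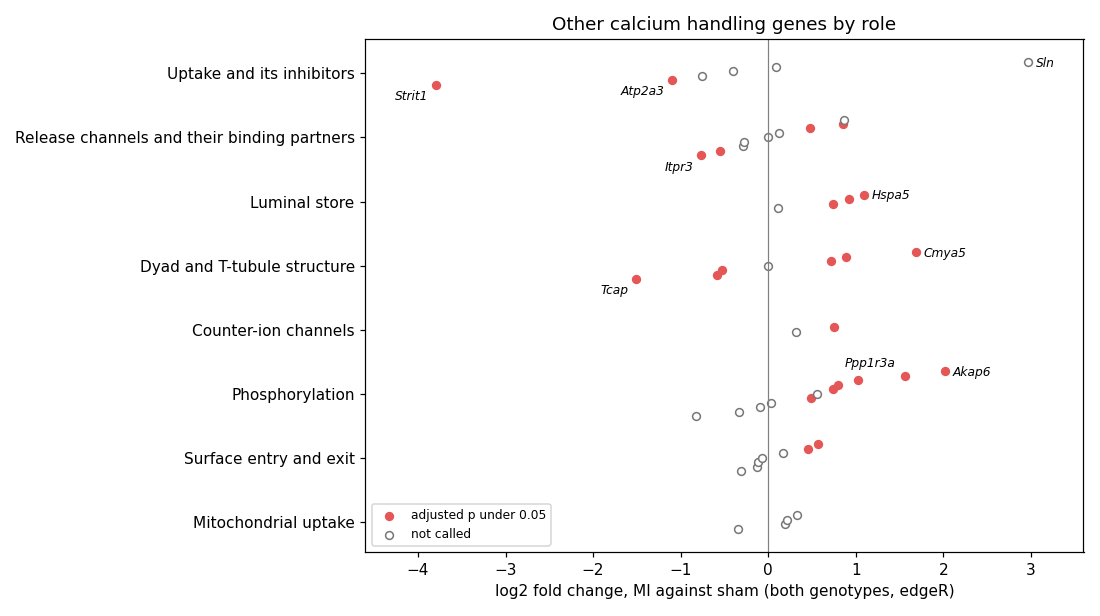
Log2 fold change of MI against sham over both genotypes (horizontal axis) for the 50 tested genes of the wider calcium handling list by role (vertical axis), with filled points for an adjusted p under 0.05 in edgeR and names for Sln and the 4 called genes with the largest change in each direction. The phosphorylation and luminal store genes called all lie above 0, and Sln at 2.97 is not called.

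Markers of other cell types moved with MI as well. Of the cardiomyocyte markers 4 of 14 were called higher (Actc1, Actn2, Ldb3 and Myom1) and 5 lower (Tnni3, Tnnc1, Myl2, Myl3 and Ckm), with a median log2 fold change of -0.38. Their summed level overlapped on both scales, at 43221 to 49317 CPM in sham and 28578 to 50681 CPM in MI libraries. On the FPKM scale it was 11497 to 13870 FPKM in sham and 13429 to 19229 FPKM in MI libraries. The lowest MI value was below the lowest sham value by CPM and above it by FPKM, so any direction depended on the scaling. All 8 fibroblast markers were called higher, from 1518 to 1682 CPM in sum to 2421 to 6999 CPM, and all 5 endothelial markers were called lower, from 1498 to 1611 CPM to 457 to 656 CPM. Of the macrophage markers 3 of 5 were called higher (353 to 394 CPM in sum against 358 to 926 CPM), of smooth muscle 1 of 4 lower (154 to 300.1 CPM against 160.0 to 259.8 CPM), and of nerve 1 of 2 tested lower. Of the 5 atrial genes only Nppa was called, higher, at 106 to 504 CPM in sham and 2520 to 11746 CPM in MI libraries. The sum of the other 4 was 28.6 to 90.1 CPM in sham libraries, 26.7 to 31.0 CPM in 3 MI libraries and 8111 CPM in that labelled fl/fl-MI 2. The 3 tested adipocyte markers were not called, and the 5 skeletal muscle markers were near 0, with a sum of at most 2.24 FPKM. The part of these shifts in the members' values was not tested.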

How the data were processed

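RNA of 8 mouse heart libraries (4 groups of 2) was sequenced in pairs after poly(A) selection with a stranded kit. Groups and replicate numbers were taken from the labels. The submitters' processing notes name cutadapt 1.9 and FastQC, and the aligner, counter and annotation are not given in the sources used here. The deposited gene and transcript counts are whole numbers made by the authors without normalization, and low counts fall mostly on multiples of 4. FPKM values (fragments scaled by gene length and library total) were computed by the authors. FPKM divides by a library total that includes mitochondrially encoded genes, whose share differed between sham and MI.

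The 14028 genes whose mean FPKM reached 0.5 were tested on their counts in edgeR 4.0.16 (R 4.3.3) by the quasi-likelihood test with TMM factors and one mean for each group over all 8 libraries. P-values were adjusted by Benjamini-Hochberg over all tested genes and called under 0.05. Ratios were tested by exact permutation in SciPy 1.17.1, and tables were handled with pandas 2.3.3 in Python 3.11.15. Alternatives were DESeq2 1.42.0, limma 3.58.1 on log2(FPKM + 1) or log2(FPKM + 0.1), other scalings and filters, fits on the 4 libraries compared, a replicate block, and leaving out each library. Chosen after seeing the data were the offset for transcript length, MI as the only term and crossed replicate numbers. Scripts were tested on simulated data.

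The members and the lists of calcium handling genes and markers were chosen with earlier results of these data known. Named were all members, the 4 called genes of the wider list with the largest change in each direction, Sln, and the 5 genes with the highest Pearson r with Atp2a2 and with Pln among genes whose mean FPKM reached 5. Further genes of the wider list and the markers named were chosen after their values were seen. Coordinates are those of the gene table, which for 8 of the 10 members equal GENCODE M21 (GRCm38).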

Additional observations from a re-analysis of the deposited data

Results flagged for a closer look

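Jph2 in the library labelled CKO-MI 1 stood apart from the other MI libraries, at 403 CPM against 257 to 268 CPM, with a gap of 0.926 of the whole range where 0.829 is the limit for 4 samples. Over the 22 groups of 4 examined this way, chance flags about 1 in 20.

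Pln moved in opposite directions after MI, lower in both libraries labelled fl/fl-MI and higher in both labelled CKO-MI than in their sham libraries. The difference of the changes was 0.82 on the log2 scale and did not pass in edgeR (adjusted p = 0.574). Over 17 alternatives it lay between 0.72 and 0.95, with adjusted p from 0.0744 to 0.9999. On the FPKM scale Pln was higher after MI in fl/fl as well, at 791 and 770 FPKM against 682 and 641 FPKM.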

How the results depend on the processing

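Over both genotypes, Casq2, Jph2, Slc8a1 and Srl were called higher under all 18 alternatives. How many of all tested genes were called higher under all of them was not counted. The number of members called was 7 (5663 of all 14028 tested genes), and 4 with the transcript length offset (5281 genes). In fl/fl it was 3 (2596 of all tested genes), 6 in DESeq2 (4038) and 6 in limma with pseudocounts 0.1 and 1 (5437 and 5255). It was 5 among genes whose mean FPKM reached 5 (1602 of 5524), and 1 with RLE normalization (2514). It was also 1 with the length offset (2390) and with the replicate block (1689), and 0 with only the 4 libraries compared (199). In CKO it was 5 (3467 of all tested genes), and 8 in DESeq2 (4726) and 9 in limma with pseudocounts 0.1 and 1 (5390 and 5164). For CKO-Sham against fl/fl-Sham it was 0 (1 of all tested genes), and 1 with only the 4 libraries compared (165). Of the wider list 24 were called, and 8 at an unadjusted p under 0.05 with a change of at least 2-fold.

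Leaving out 1 library changed the number of members called over both genotypes, in fl/fl, in CKO and for CKO-MI against fl/fl-MI. The numbers called of the wider list and of all tested genes changed as well. The log2 difference of the Pln to Atp2a2 ratio between MI and sham lay between -1.27 and -0.68, where 3 libraries against 4 cannot reach p under 0.05, and between CKO and fl/fl between -0.21 and 0.53.

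Signs that turned without 1 library were those of Trdn (-0.093 to 0.17) and Hrc (-0.043 to 0.71) over both genotypes. In fl/fl they were those of Atp2a2 (-0.059 to 1.87), Ryr2 (-0.21 to 0.99), Trdn (-0.27 to 0.027) and Hrc (-0.81 to 0.70), and in CKO that of Trdn (-0.025 to 0.51). For CKO-MI against fl/fl-MI they were Atp2a2 (-1.01 to 0.93), Ryr2 (-0.32 to 0.90), Casq2 (-0.39 to 0.27), Trdn (-0.24 to 0.29), Hrc (-0.50 to 1.02), S100a1 (-0.20 to 0.36) and Srl (-0.39 to 0.56), and for CKO-Sham against fl/fl-Sham Slc8a1 (-0.20 to 0.090) and S100a1 (-0.025 to 0.24).

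Other settings turned signs as well. Trdn over both genotypes was -0.0051 among genes whose mean FPKM reached 5. In limma with pseudocounts 0.1 and 1, Pln in fl/fl was 0.24 and 0.24, against -0.33 in edgeR. Trdn in fl/fl was 0.44 and 0.42, against -0.13 in edgeR. In limma Trdn in CKO-MI against fl/fl-MI was -0.0021 and -0.0017. Srl in that comparison was -0.0026, and 0.014 in DESeq2, 0.014 with RLE, 0.058 and 0.058 in limma, 0.024 with no filter, 0.0037 with only the 4 libraries compared and 0.047 with the replicate block. With the length offset Slc8a1 was 0.011 and S100a1 -0.014 in CKO-Sham against fl/fl-Sham. The causes were not tested.

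Deviations of same-numbered libraries showed little correlation between groups (-0.14 to 0.06). With 2 libraries in a group, this does not show whether same-numbered libraries were prepared together. With the replicate block 6 members were called over both genotypes (5085 of all tested genes), without Atp2a2 (1.24, adjusted p = 0.0566 in edgeR). In CKO 4 were called (2677 genes), without Ryr2 (adjusted p = 0.0543 in edgeR). In fl/fl 1 was called (1689 genes), without Casq2 (adjusted p = 0.0765) and Jph2 (adjusted p = 0.0755 in edgeR). Of the wider list 24 were called, and the Pln to Atp2a2 ratio differed by -1.05 (exact permutation test p = 0.0556). With fl/fl-MI and CKO-MI numbers crossed, 0 members were called between them.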

Other observations

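Among 5514 non-member genes whose mean FPKM reached 5, the levels most like those of Atp2a2 over the 8 libraries were those of Nceh1 (Pearson r of log2 CPM 0.99), Cobll1 (0.99), Slc20a2, Ddx24 and Rhot1 (0.98 each). Nceh1, a cholesteryl ester hydrolase, was at 77.8 CPM for fl/fl-MI 1 and 184 CPM for fl/fl-MI 2, against 55.0 to 76.2 CPM in the sham libraries. The levels most like those of Pln were those of Ubac1 (r = 0.96), Optn (0.95), Mrps2 (0.95), Hadhb (0.92) and Spryd4 (0.92). These are descriptions over libraries that share their groups.

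Ratios within the release complex were looked at after the values were seen. From FPKM values, triadin to the ryanodine receptor (Trdn to Ryr2) was 1.07 and 0.855 in fl/fl-Sham, 1.23 and 0.975 in CKO-Sham, 0.961 and 0.460 in fl/fl-MI, and 0.644 and 0.467 in CKO-MI. The library labelled fl/fl-MI 1 lay within the sham range and the other 3 MI libraries below it. Casq2 to Ryr2 ranged from 6.12 to 7.44 in the sham and from 6.39 to 11.9 in the MI libraries.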
